A study of Homo sapiens with 18 samples.

Results

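The genes described here mostly encode secreted antimicrobial and acute phase proteins of epithelia. They are the S100 genes S100A7, S100A8, S100A9 and S100P, the beta-defensin gene DEFB4A, the siderophore-binding lipocalin gene LCN2, the protease inhibitor genes SLPI and PI3, and the serum amyloid A genes SAA1 and SAA2, 10 of the 58302 genes listed. They were chosen by name after opposite changes of S100 genes had been seen in EBC-1 and HCC827 cells, so their values in those cell lines are given as a description, without a test. PC-9 cells, whose comparison is not part of that stated reason, carry the tests. Earlier results of these data were known when the genes were chosen, so the PC-9 tests may not be fully independent of the choice.

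RNA was sequenced from 3 lung cancer cell lines, EBC-1, which carries a MET amplification, and the EGFR-mutant lines PC-9 and HCC827. In each line, cells with a stable knockdown of the tyrosine kinase gene SYK (shSYK) stood beside negative control cells (nc), and each of the 6 groups had 3 libraries. The knockdown rested on 1 lentiviral shRNA clone, so an effect of that clone and an effect of lower SYK cannot be told apart. The labels do not say whether the libraries of a group came from separate cultures, and p-values then measure the spread between these libraries, which may be technical. The values are FPKM, reads per kilobase of gene length scaled to a library total, as the authors deposited them. How that total was defined is not given in the sources used here. It was 0.883 to 1.07 times the reads on genes recovered from the values. In EBC-1 this ratio was 0.969 to 1.01 in nc and 1.03 to 1.07 in shSYK libraries, without overlap, which lowers shSYK values relative to nc.

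Epithelial cells of the airway and skin make many of these proteins. They raise several of them strongly when interleukin-1, interleukin-17 or microbial products activate NF-kB, its cofactor encoded by NFKBIZ, and C/EBP factors. S100A8 and S100A9 pair to form calprotectin, which withholds zinc and manganese from microbes, LCN2 withholds iron, DEFB4A damages bacterial membranes, and SLPI and PI3 block neutrophil elastase. Neutrophils also store calprotectin, LCN2 and SLPI, so epithelial cultures free of leukocytes show the epithelial share of the programme.

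Depth was 7920099 to 15729103 reads on genes per library. SYK, the targeted gene, had a lower level in shSYK cells of every line, 7.43 ± 0.189 against 14.2 ± 1.07 FPKM in EBC-1 (SD, n = 3 libraries), 2.09 ± 0.389 against 6.51 ± 0.698 in PC-9 and 2.99 ± 0.472 against 9.08 ± 0.649 in HCC827. The limma adjusted p was 0.000271 for EBC-1, 0.00733 for PC-9 and 0.000197 for HCC827. In PC-9 it was 0.0648 without shSYK replicate 1. All 7 epithelial markers examined, EPCAM and KRT8 among them, had a mean of at least 1 FPKM in every group. The 12 leukocyte markers summed to 42.9 to 135 FPKM per library, nearly all of it from LCP1, a gene of the actin cytoskeleton. The leukocyte gene PTPRC had at most 14 reads in a library, and the neutrophil gene MPO at most 11, so these were at or near 0 in all 18 libraries. The other leukocyte markers with a mean of 1 FPKM or more were ITGAM in PC-9 (2.77 in nc and 3.15 in shSYK cells) and CD14 in HCC827 nc cells (1.02). Fewer expressing cells and less RNA per cell cannot be told apart in these bulk libraries.

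The control cells of the 3 lines differed widely in the level of the programme. In nc cells, S100A9, S100A8, S100P, SLPI and PI3 had their highest mean FPKM in PC-9, S100A7, DEFB4A, LCN2 and SAA1 in HCC827, and SAA2 in EBC-1. The order of levels was PC-9, HCC827, EBC-1 for the 3 genes S100A8, S100A9 and S100P, with no overlap between neighbouring lines. LCN2 and SAA1 overlapped between HCC827 and EBC-1, and SAA2, with mean levels of 6.03 to 6.51 FPKM, overlapped between every pair of neighbours. Each line stands in a table of its own, so a line and its table cannot be told apart and no test was made between lines.

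**Figure D1:**
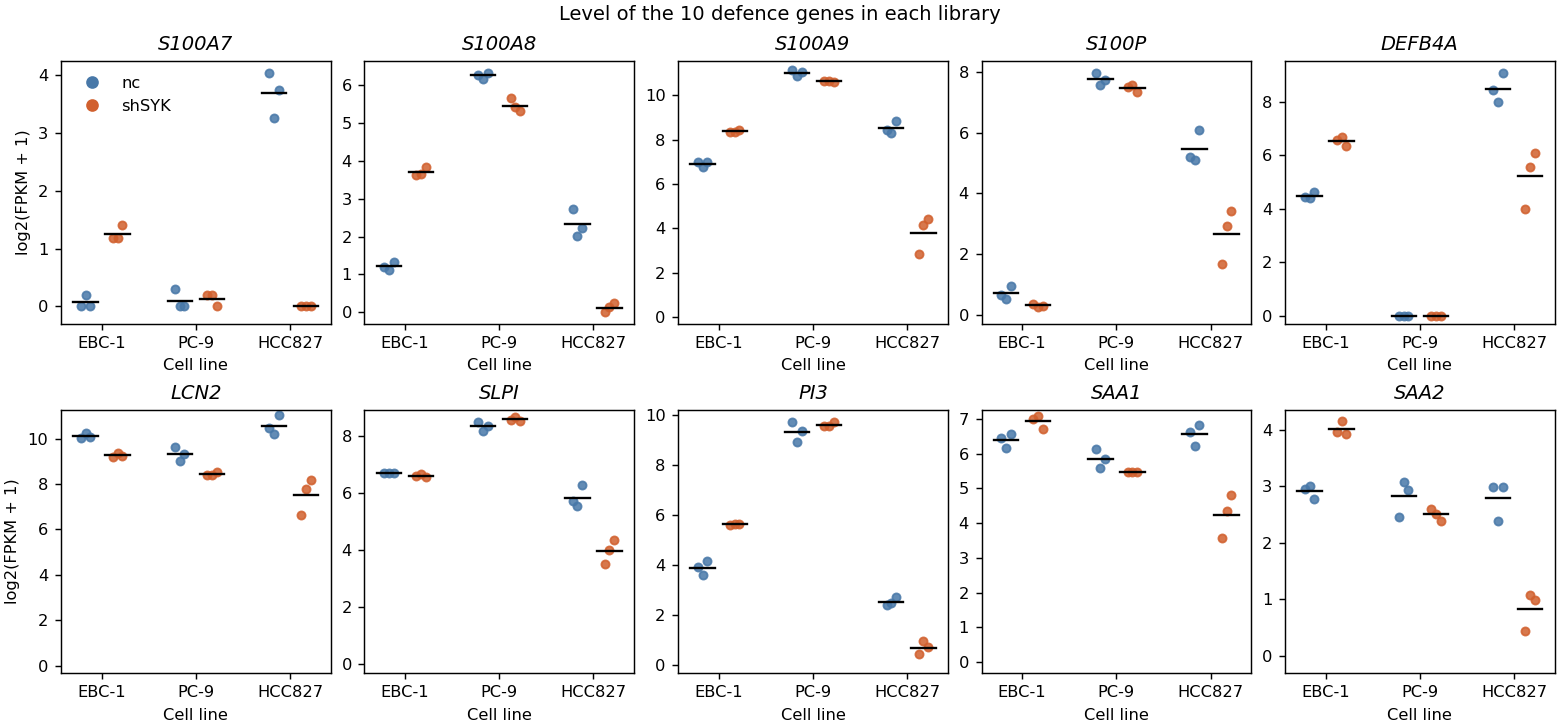
Level of each gene in each library, as log2(FPKM + 1) on the vertical axis of its own scale, by cell line, with nc libraries in blue, shSYK libraries in orange and the mean of each 3 libraries as a black bar. In HCC827 every gene is lower in all 3 shSYK libraries, in EBC-1 7 genes are higher and 3 lower, and in PC-9 most pairs of groups lie close together.

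In the plot of levels, the HCC827 groups lie far apart, those of EBC-1 lie apart in both directions, and in PC-9 the groups of S100P, PI3, SAA2, S100A7 and DEFB4A overlap or coincide.

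By count, the 10 genes lay in opposite directions in EBC-1 and HCC827, which is the pattern that led to their choice. In EBC-1 the shSYK libraries were all above the nc libraries for 7 genes (S100A7, S100A8, S100A9, DEFB4A, PI3, SAA1 and SAA2) and all below for 3 (S100P, LCN2 and SLPI). Among the 12430 genes tested in EBC-1, 56.9% had groups that did not overlap, 29.7% with shSYK higher and 27.2% with shSYK lower. In HCC827 all 10 genes had every shSYK library below every nc library, where 27.6% of the 11999 genes tested did, 24.7% had shSYK higher and 52.3% did not overlap in either direction. In PC-9, 1 gene had shSYK higher (SLPI), 4 had shSYK lower (S100A8, S100A9, LCN2 and SAA1) and 5 overlapped, beside 23.7% of 12089 genes without overlap, 11.4% higher and 12.3% lower.

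The median difference over the 10 genes, shSYK minus nc in log2(FPKM + 1), was 1.15 for EBC-1, -0.30 for PC-9 and -2.56 for HCC827. Over all genes tested, the medians were 0.0090, 0.0088 and -0.0053 for the same lines. A filter at a mean of 1 FPKM kept 8 genes in EBC-1 (not S100A7 and S100P), 8 in PC-9 (not S100A7 and DEFB4A) and 10 in HCC827. S100A7, S100A8, PI3 and SAA2 passed in HCC827 through their nc level alone, with shSYK means under 1 FPKM, so no count over the genes that passed is read as support.

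**Figure D2:**
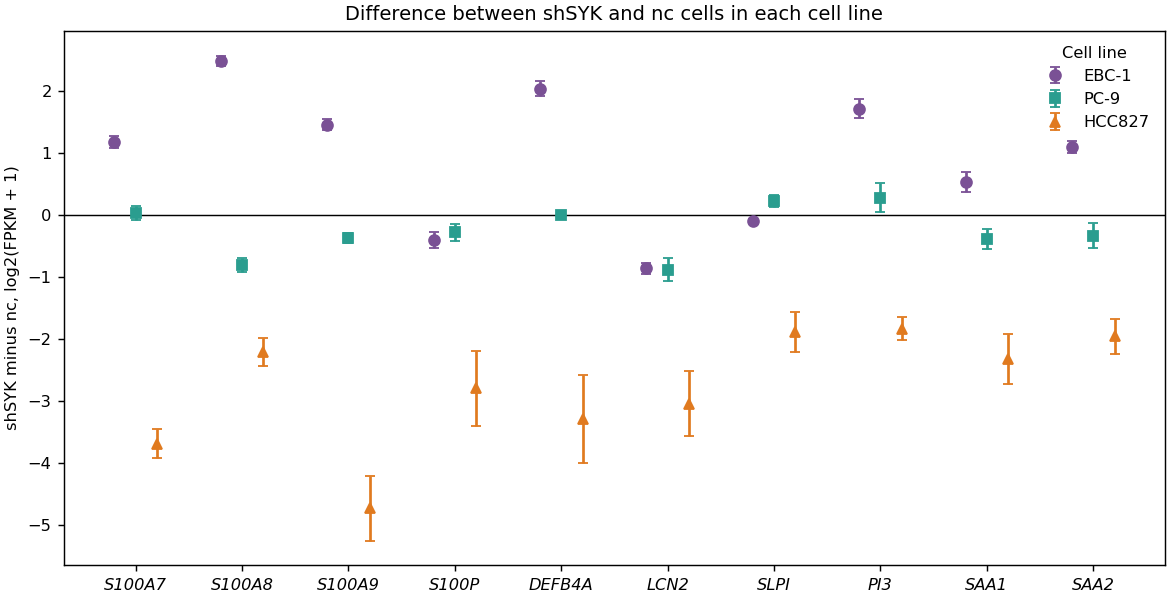
Difference between shSYK and nc means in log2(FPKM + 1) for each gene, with a symbol for each cell line and bars for the standard error between libraries (n = 3 per group). EBC-1 runs from -0.86 (LCN2) to 2.49 (S100A8), PC-9 stays between -0.88 (LCN2) and 0.29 (PI3), and HCC827 lies between -4.73 (S100A9) and -1.83 (PI3).

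S100A8 and S100A9, whose products form calprotectin, lie on chromosome 1 of hg38, at 153390032 to 153391188 on the minus strand and 153357854 to 153361027 on the plus strand. In HCC827, S100A9 stood at 349, 313 and 461 FPKM in the nc libraries and at 6.07, 16.8 and 20.6 in the shSYK libraries, from 1457 to 2866 reads down to 35 to 130. The groups were far apart, with shSYK replicate 1 lowest, and the shSYK mean was 3.87% of the nc mean. The difference of -4.73 in log2(FPKM + 1) was the most negative of all 11999 genes tested in that line. HCC827 was among the lines that led to the choice of genes, so this rank is a description only. It also holds for that scale, which understates changes of low genes. By ratio of means, S100A9 was 25.8-fold lower. S100A7 (at least 68.6-fold) and S100A8 (41.4-fold by summed reads per depth) were lower by more, on few reads.

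In EBC-1, S100A9 went the other way, at 128, 108 and 125 FPKM in nc and 325, 329.9 and 346 in shSYK libraries, 2.77 times higher in the mean. PC-9 had by far the most, with 2250.3, 1853 and 2106 FPKM in nc libraries and 1634, 1592 and 1583 in shSYK libraries. S100A9 ranked 7 among protein-coding genes by mean level in PC-9 nc cells, and the 2 groups did not overlap. The difference in PC-9 was -0.36 (SE 0.12) in log2(FPKM + 1), which did not pass in limma (adjusted p = 0.201, 95% interval -0.65 to -0.08). It passed in 2 of 16 alternative fits, rescaling to an equal sum (adjusted p = 0.0412) and quantile normalization (adjusted p = 0.0447), over a range up to 0.728.

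S100A8 was rarer than its partner in every line. In PC-9 it stood at 76.7, 70.8 and 78.9 FPKM in nc libraries and at 49.2, 41.7 and 38.6 in shSYK libraries, from 394 to 828 reads each. No shSYK library reached the lowest nc library, and the mean fell 1.75-fold. This was the member change that passed the test in PC-9, with a difference of -0.80 (SE 0.12, 95% interval -1.09 to -0.51, limma adjusted p = 0.0283). Of the 8 genes tested there, this 1 passed, beside 2.09% of all genes tested and 1.41% in the lower direction. The call held in 10 of 16 alternative fits with adjusted p between 0.00162 and 0.179, and was lost without nc replicate 3 (adjusted p = 0.179), without shSYK replicate 1 (0.0945), 2 (0.167) or 3 (0.154), with no filter (0.0755) and with a replicate block (0.0542).

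In EBC-1, S100A8 was low in nc libraries, at 1.298, 1.18 and 1.52 FPKM from 15 to 18 reads. It stood at 11.4, 11.6 and 13.3 FPKM in shSYK libraries from 137 to 188 reads, 9.11 times higher in the mean. In HCC827, 36 to 41 reads gave 5.64, 3.05 and 3.69 FPKM in nc libraries, and the shSYK libraries held 0, 1 and 2 reads (0, 0.0935 and 0.182 FPKM). The ratio of summed reads per depth was 41.4 in favour of nc, with an exact 95% interval of 13.8 to 203 that covers counting error only. Low values of this gene thus rest on few reads, and their size on the log2(FPKM + 1) scale, -2.20, depended on the pseudocount (-4.54 with 0.1).

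The balance of the calprotectin pair differed between groups in EBC-1 and PC-9. The ratio of S100A9 to S100A8 FPKM was 82.6 to 98.6 in EBC-1 nc libraries and 26.0 to 28.4 in shSYK libraries. In PC-9 it was 26.2 to 29.3 in nc and 33.2 to 41.0 in shSYK libraries. In neither line did the groups overlap, and the shSYK ratio was lower in EBC-1 and higher in PC-9. In HCC827 it was 62.0, 103 and 125 in nc libraries, 179.6 and 113 in shSYK replicates 2 and 3, and undefined in replicate 1, which held no S100A8 read, so the groups overlapped.

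S100A7, or psoriasin, is an S100 gene of inflamed skin and squamous epithelium, at 153457744 to 153460701 on the minus strand of chromosome 1. In HCC827 it stood at 15.5, 8.58 and 12.5 FPKM in nc libraries, from 54 to 72 reads, and at 0 reads in all 3 shSYK libraries. Against a floor of 3 reads over the group, it was at least 68.6-fold lower. In EBC-1 the nc libraries held 0, 1 and 0 reads and the shSYK libraries 11, 8 and 12 (1.26, 1.28 and 1.65 FPKM), a ratio of 28.5 with an exact 95% counting interval of 4.74 to 1160. In PC-9 no library had more than 1 read, so a difference was not detectable at this depth. Its paralogue S100A7A had at most 4 reads in any of the 18 libraries.

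S100P, a calcium-binding gene of many adenocarcinomas, lies on chromosome 4 at 6693069 to 6697170, plus strand. In PC-9 the levels were 252, 189 and 213 FPKM in nc and 183, 192 and 162 in shSYK libraries. These overlapped, with a difference of -0.28 (95% interval -0.61 to 0.05, limma adjusted p = 0.403). In HCC827, S100P stood at 36.0, 33.2 and 67.4 FPKM in nc libraries and at 2.19, 6.61 and 9.66 in shSYK libraries, 7.40-fold lower in the mean. In EBC-1 it rested on few reads in both groups, with 7 to 14 per nc library and 3 to 6 per shSYK library. There it lay in the same direction as in HCC827, against the other 3 S100 genes.

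DEFB4A encodes human beta-defensin 2, an inducible peptide of epithelia, at 7894629 to 7896711 on the plus strand of chromosome 8. It followed S100A9 in direction. In HCC827, 345, 252 and 540.3 FPKM in nc libraries stood against 14.7, 46.5 and 67.0 in shSYK libraries, 8.87-fold lower in the mean and without overlap. In EBC-1, 20.8, 19.997 and 23.9 FPKM in nc libraries stood against 95.4, 101 and 80.5 in shSYK libraries, 4.29 times higher. In PC-9 no read fell on DEFB4A in any of the 6 libraries, although S100A9 was at its highest there.

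Reads of DEFB4A are uncertain, because 67.2% of the 238 words of 100 bases in its transcripts also occur in DEFB4B, its near copy. DEFB4B differed the same way, from 0.791 ± 0.282 to 3.27 ± 0.859 FPKM in EBC-1 and from 10.6 ± 2.74 to 0.651 ± 0.578 in HCC827, and had no read in PC-9. How reads shared by the copies were counted is not given in the sources used here.

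LCN2 was the most abundant of the 10 genes in EBC-1 and HCC827. It lies on chromosome 9 at 128149071 to 128153455, plus strand. In EBC-1 it had 1055, 1221 and 1059 FPKM in nc libraries and 585, 656 and 598 in shSYK libraries. All shSYK libraries were below all nc libraries, with 55.1% of the nc mean, while most of the other genes were higher there. LCN2 made up 74.1 to 79.1% of the summed FPKM of the 10 genes in EBC-1 nc libraries and 44.9 to 46.8% in shSYK libraries. The size of this difference depended on scaling, -0.86 as deposited, -0.73 after rescaling to an equal sum and -0.41 after quantile normalization. Rescaling to an equal sum also moved the median of all genes in EBC-1 from 0.0090 to 0.116.

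In HCC827, LCN2 stood at 1419, 1181 and 2086 FPKM in nc libraries and at 97.5, 219.5 and 286 in shSYK libraries, 7.77-fold lower in the mean. In PC-9 it stood at 793, 508 and 648 FPKM in nc libraries and at 338, 338 and 369 in shSYK libraries, without overlap. The PC-9 difference of -0.88 (SE 0.17, 95% interval -1.28 to -0.47) missed the threshold (limma adjusted p = 0.0523). It passed in 8 of 16 alternative fits, with adjusted p from 0.00218 to 0.2495, and passed without nc replicate 1 (0.0245) or nc replicate 2 (0.0105). LCN2, S100P and, as deposited, SLPI were the genes with shSYK below nc in both EBC-1 and HCC827.

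RefSeq promoters (GRCh38.p14, 250 bases before to 50 after a start) were listed for S100A7, S100A8, S100A9, S100P and LCN2, 5 of the 10 genes, and not matched for DEFB4A, SLPI, PI3, SAA1 and SAA2. Both strands were searched for the NF-kB motif, for the AP-1 motif TGANTCA, for the C/EBP motif TTGCNNAA and for the Sp1 motif GGGCGG, the first of these by its consensus. LCN2 held the first 3 and S100A9 the last, and the windows of S100A7, S100A8 and S100P held none of these letters. They are shown, with the match in capitals, because NF-kB and C/EBP genes are among the pathway genes described further on. The NF-kB and Sp1 matches read as their motifs on the opposite strand to the one printed.
LCN2 NF-kB, chr9:128149268-128149297, plus strand: cagcactccgGGAATGTCCCtcactctccc
LCN2 C/EBP, chr9:128149299-128149328, plus strand: gtccctctgtcTTGCCCAAtcctgaccagg
LCN2 AP-1, chr9:128149389-128149418, plus strand: cttggcaaagaaTGAATCAacccaccctag
S100A9 Sp1, chr1:153357711-153357740, plus strand: acatttcctgccCCGCCCcagcccccttcc
The matches begin 175, 143 and 52 bases before the RefSeq start used for LCN2 and 131 bases before that used for S100A9. The LCN2 window ran from 128149203 to 128149502, so its RefSeq start lies downstream of the gene start at 128149071. All 3 LCN2 matches thus lie inside the gene span given above. Of 35116 promoters of the same length, 5.91% held the NF-kB motif, 7.71% the AP-1, 10.5% the C/EBP and 45.0% the Sp1 motif. A match describes the sequence and is no evidence of binding in these cells.

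SLPI and PI3, neighbours on chromosome 20 (45252239 to 45254564, minus strand, and 45174876 to 45176544, plus strand), encode the elastase inhibitors secretory leukocyte peptidase inhibitor and elafin. PI3 was 46.3 times higher in PC-9 nc cells than in EBC-1 nc cells, the next line in order. In EBC-1 it stood at 14.3, 11.2 and 16.9 FPKM in nc libraries and at 47.6, 49.5 and 48.4 in shSYK libraries, 3.42 times higher and without overlap. In HCC827 it stood at 4.32, 4.57 and 5.63 FPKM from 18 to 35 reads in nc libraries and at 0.347, 0.978 and 0.635 from 2 to 6 reads in shSYK libraries. In PC-9 the groups overlapped, at 835, 484 and 648 FPKM in nc and 756, 745 and 848 in shSYK libraries (difference 0.29, 95% interval -0.18 to 0.75, limma adjusted p = 0.558).

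SLPI differed least in EBC-1. Its nc libraries all stood at 103 FPKM and its shSYK libraries at 96.7, 101 and 93.3, a difference of -0.09 that turned to 0.04 after rescaling to an equal sum or quantile normalization. In HCC827 it stood at 51.8, 46.0 and 76.9 FPKM in nc and at 10.6, 15.3 and 19.5 in shSYK libraries, 3.85-fold lower. In PC-9 every shSYK library (381, 405 and 374 FPKM) was above every nc library (366, 294 and 328), yet the difference of 0.23 did not pass (95% interval -0.05 to 0.52, limma adjusted p = 0.418). SLPI and PI3 lay on the same side in HCC827, while the side of SLPI in EBC-1 depended on the scaling.

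SAA1 and SAA2 encode acute phase apolipoproteins and lie side by side on chromosome 11 (18266174 to 18269977, plus strand, and 18239223 to 18248643, minus strand). In EBC-1, SAA1 stood at 86.4, 70.8 and 92.6 FPKM in nc and 126, 133 and 103 in shSYK libraries, 1.45 times higher in the mean. SAA2 stood at 6.71, 7.002 and 5.82 FPKM in nc and at 14.5, 16.9 and 14.1 in shSYK libraries, 2.32 times higher. Neither overlapped between groups.

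In HCC827, SAA1 stood at 98.2, 74.0 and 112 FPKM in nc and at 10.9, 19.3 and 27.1 in shSYK libraries, 4.97-fold lower. SAA2 stood at 6.90, 4.24 and 6.96 FPKM in nc libraries and at 0.360, 1.098 and 0.987 in shSYK libraries, which held 8 to 26 reads. In PC-9 the SAA1 levels were 69.4, 47.0 and 56.4 FPKM in nc and 43.2, 43.3 and 43.5 in shSYK libraries, with a difference of -0.38 (95% interval -0.73 to -0.04, limma adjusted p = 0.272). The shSYK libraries lay closely together below the spread of the nc libraries, without overlap. SAA2 in PC-9 had overlapping groups and a difference of -0.33 (95% interval -0.71 to 0.06, limma adjusted p = 0.396). The genes share sequence, with 20.1% of the 100-base words of SAA1 also in SAA2 and 11.2% of those of SAA2 also in SAA1, so reads between them are uncertain. Their FPKM ratio, SAA1 over SAA2, was 10.1 to 15.9 in EBC-1 nc and 7.32 to 8.73 in shSYK libraries. In HCC827 it was 14.2 to 17.44 in nc and 17.58 to 30.2 in shSYK libraries. These barely parted, and with 8 to 26 SAA2 reads per shSYK library no difference in the ratio is read from them. In PC-9 the groups overlapped at 6.30 to 15.4 in nc and 8.57 to 10.2 in shSYK libraries.

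**Figure D3:**
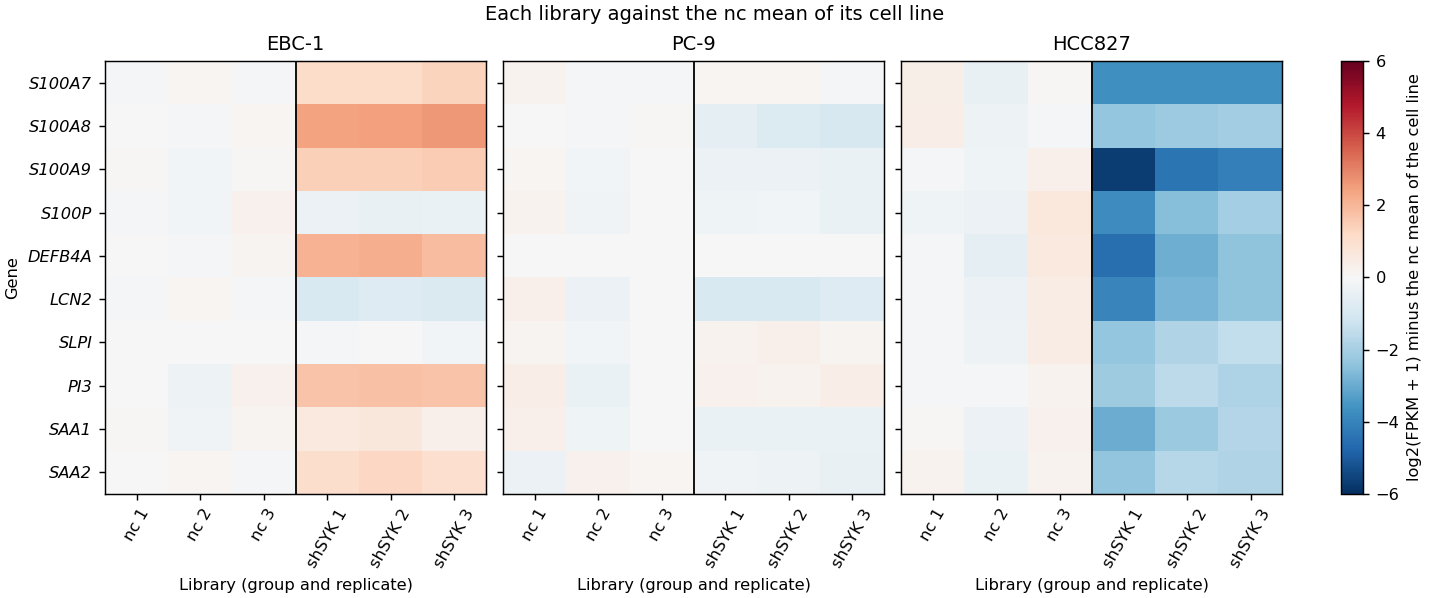
Each library's log2(FPKM + 1) minus the mean of the nc libraries of its cell line, for the 10 genes (rows) and 6 libraries per cell line (columns), with red above and blue below the nc mean. In HCC827 the blue is deepest in shSYK replicate 1 for most genes, and in EBC-1 LCN2 and S100P are blue among mostly red rows.

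In HCC827 most of the 10 genes shared their highest and lowest libraries, as the map of libraries shows. Such counts were not made over all genes, so those given here are a description only. Of the 10 genes, 8 were highest in nc replicate 3 and 9 were lowest in nc replicate 2 among the nc libraries. Of the 8 genes with more than 3 reads over the shSYK group, 8 were lowest in shSYK replicate 1, and 6 highest in shSYK replicate 3. Without shSYK replicate 1 the S100A9 difference in HCC827 was still -4.24, the smallest in size over the 6 libraries left out in turn. The 10 genes made up 0.576 to 0.952% of summed FPKM in HCC827 nc libraries and 0.0440 to 0.133% in shSYK libraries. In EBC-1 the share was 0.509 to 0.577% in nc and 0.517 to 0.553% in shSYK libraries, which overlap. The sum itself did not overlap there, at 1417 to 1543 FPKM in nc and 1299 to 1402 in shSYK libraries. In PC-9 the share was 1.26 to 1.36% in nc and 1.08 to 1.104% in shSYK libraries. The order of the nc libraries in PC-9 was also shared by most genes. Of the 8 genes with more than 3 reads over that group, 6 were highest in nc replicate 1 and 7 lowest in nc replicate 2. The FPKM of all genes summed to 342216 in nc replicate 1, 274907 in nc replicate 2 and 301347 in nc replicate 3, the same order. In EBC-1, of 9 such genes in nc cells, 5 were highest in nc replicate 3 and 6 lowest in nc replicate 2. The summed FPKM of all genes was likewise highest in nc replicate 3 and lowest in nc replicate 2 of EBC-1 and HCC827. The part of library scaling in these orders was not tested.

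Markers of airway secretory cells moved with the genes in HCC827. The 6 markers summed to 50.7 to 56.3 FPKM in nc libraries and to 4.66 to 10.4 in shSYK libraries, with 2 of the 6 at a mean of 1 FPKM or more in nc cells. Nearly all of the sum was the mucin gene MUC5B, at 52.9 FPKM in nc and 7.46 in shSYK cells, and 4 of the 6 had no read in nc cells. In EBC-1 and PC-9 the same markers summed to less than 1 FPKM in every library, at most 0.332 and 0.819. The 6 alveolar markers in HCC827 summed to 140.5 to 144 FPKM in nc and to 85.8 to 95.3 in shSYK libraries, from NKX2-1 and NAPSA, and to at most 3.45 in the other lines. The 6 fibroblast markers summed to at most 8.37 FPKM in any library, nearly all COL1A1. In PC-9 the squamous markers summed to 18.4 to 24.8 FPKM in nc and to 139 to 142 in shSYK libraries, nearly all from KRT5, a keratin gene of basal cells. The same 6 squamous markers summed to 30.4 to 39.6 FPKM in HCC827 nc and 8.71 to 14.4 in shSYK libraries, and to 9.32 to 10.5 and 5.48 to 8.92 in EBC-1. Nearly all of this was SOX2 and KRT6A in HCC827 and SOX2 alone in EBC-1 (9.85 in nc and 6.96 in shSYK cells). The paper lists EBC-1 as squamous cell lung cancer and PC-9 and HCC827 as lung adenocarcinoma. Tumour type and the other differences between EBC-1 and these lines cannot be told apart. The part of these cell state markers in the results on the 10 genes was not tested.

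The wider pathway was followed in a list of 100 further genes in 4 roles, other S100 genes, other secreted defence proteins, partners with target proteases and receptors, and the signals and regulators that induce the programme. In EBC-1, 55 were tested and 26 passed (47.3%), 18 higher and 8 lower, beside 44.7% of all genes, 23.1% higher and 21.6% lower. After rescaling to an equal sum, the split of all genes in EBC-1 was 4019 higher and 1901 lower in place of 2876 and 2686. In HCC827, 57 were tested and 32 passed (56.1%), 9 higher and 23 lower, beside 38.0% of all genes, 17.2% higher and 20.7% lower. The split of all genes there was 2066 and 2488, and 2482 and 1905 after rescaling. In PC-9, 54 were tested and 2 passed (3.70%), 1 in each direction, beside 0.678% of all genes higher and 1.41% lower. Without EBC-1 nc replicate 1 the EBC-1 count was 17. Of the calls, 3 in EBC-1 and 5 in HCC827 were of genes with a mean under 1 FPKM in 1 group.

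**Figure D4:**
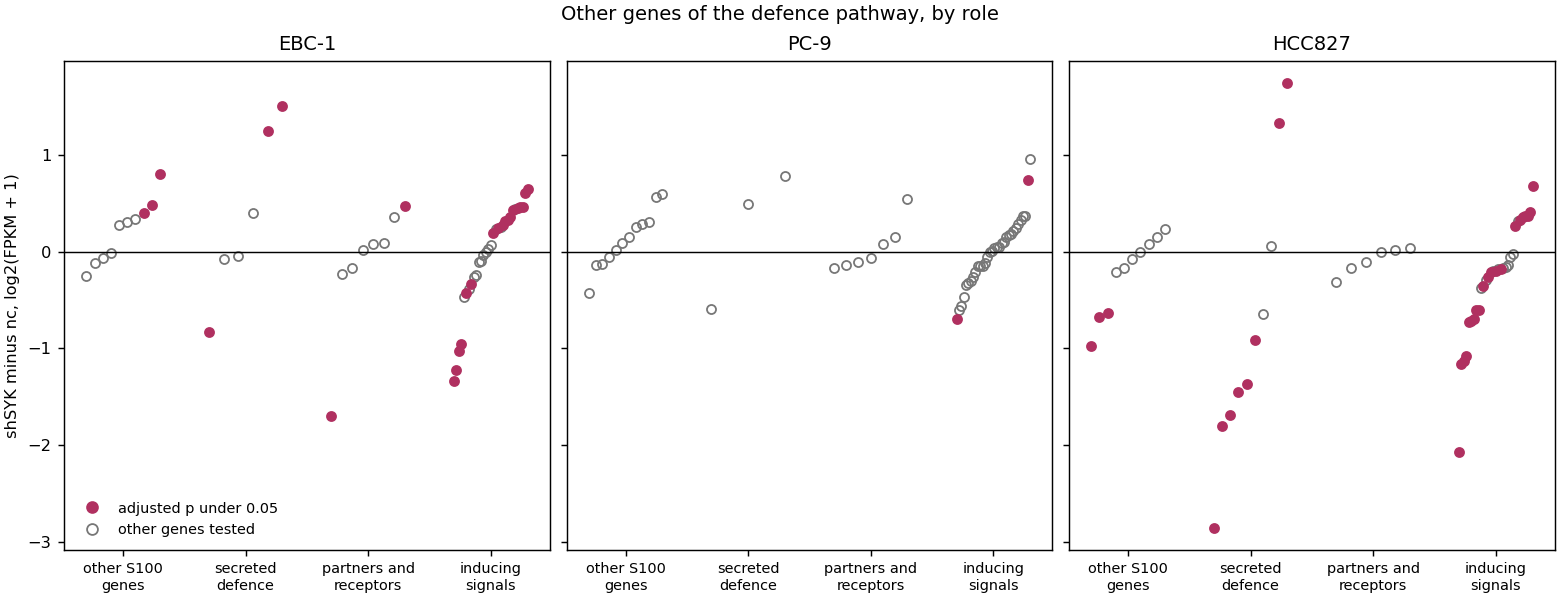
Difference between shSYK and nc in log2(FPKM + 1) for the tested genes of the pathway list, by role (horizontal axis, genes sorted within a role) and cell line, with filled points for genes past the limma threshold. In HCC827 the secreted defence genes reach from -2.85 (DEFB4B) to 1.74 (DEFB103A), and in PC-9 2 points are filled.

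Most other S100 genes did not pass. Of 10 tested in EBC-1, 3 rose, beside 23.1% of all genes, S100A11 by 0.80 (SE 0.07, limma adjusted p = 0.000337), S100A6 by 0.48 (adjusted p = 0.0136) and S100A10 by 0.40 (adjusted p = 0.00904). All are abundant calcium-binding proteins of epithelial cells, and S100A10 partners with ANXA2, which rose by 0.47 (adjusted p = 0.00174). Of 10 tested in HCC827, 3 fell, beside 20.7% of all genes, S100A14 by 0.98 (adjusted p = 0.00844), S100A16 by 0.67 (adjusted p = 0.00184) and S100A13 by 0.64 (adjusted p = 0.00236). Changes of S100 genes in these lines were known when the list was written, so these calls are no independent evidence of a direction. Of 12 tested in PC-9, limma called 0, with 3 at an unadjusted p under 0.05, and limma-voom on recovered reads also called 0.

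Among the secreted defence genes, HCC827 had 10 tested, of which 6 were called lower and 2 higher, beside 20.7% and 17.2% of all genes. Of these calls, 3 of the lower (DEFB4B, CCL20 and C3) and both of the higher had a mean under 1 FPKM in 1 group and passed the filter through the other group alone, so that they had to differ, and their values are given without a test. CCL20, a chemokine with antimicrobial activity, stood at 2.58, 1.90 and 6.36 FPKM in nc and at 0, 0.350 and 0.341 in shSYK libraries, and did not overlap. DEFB103A, the beta-defensin 3 gene, went against the rest, with 0 reads in nc libraries and 1.74, 3.09 and 2.30 FPKM in shSYK libraries, from at most 17 reads. Its near copy DEFB103B stood at 0.238 ± 0.272 FPKM in nc and 2.08 ± 0.551 in shSYK cells. In EBC-1, the complement gene C3 fell by 0.83 (limma adjusted p = 0.000817), from 69.2 ± 2.22 to 38.6 ± 5.02 FPKM. DEFB1, the constitutive beta-defensin, stood at 0.326 ± 0.161 FPKM in nc and 2.86 ± 1.09 in shSYK cells on 1 to 28 reads, and like DEFB4B passed the filter in EBC-1 through its shSYK level alone. C3 thus lay on the side of LCN2 in EBC-1, below nc.

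Of 18 genes for partners, target proteases and receptors, between 6 (HCC827) and 8 (EBC-1) were tested in a line. FPR2, the SAA1 receptor, CCR6, the receptor for DEFB4A and CCL20, and the neutrophil protease gene CTSG had no read in any of the 18 libraries. The elastase gene ELANE had at most 1 read in a library. AGER, the receptor for S100 proteins, was measured in all lines at 0.987 to 3.30 FPKM, and its difference was -0.17 to 0.09 without passing. MMP9, a protease that LCN2 binds and protects, stood at 5.10 ± 0.690 FPKM in EBC-1 nc and at 0.910 ± 0.437 in shSYK cells, and passed the filter through its nc level alone.

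The inducing signals and regulators included genes called in both directions in EBC-1 and HCC827. NFKBIZ, which encodes the NF-kB cofactor that drives LCN2 and DEFB4A, was the 1 pathway gene that passed as lower in all 3 lines. The share of all genes that did so was not counted, and its EBC-1 and HCC827 values were picked after they were seen. It stood at 35.1, 35.7 and 31.2 FPKM in nc and 26.1, 28.4 and 25.7 in shSYK libraries of EBC-1 (difference -0.33, limma adjusted p = 0.0112). In HCC827 the libraries stood at 24.5, 23.1 and 31.2 FPKM in nc and 10.8, 10.8 and 14.2 in shSYK cells (difference -1.08, limma adjusted p = 0.00131).

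In PC-9, NFKBIZ stood at 4.28, 5.17 and 4.65 FPKM in nc and at 2.82, 2.19 and 2.54 in shSYK libraries, a difference of -0.70 (SE 0.11, limma adjusted p = 0.0298). This call was lost with a replicate block (0.0645), with no filter (0.0944), and without nc replicate 3 (0.163), shSYK replicate 1 (0.115), 2 (0.156) or 3 (0.144). The other pathway gene called in PC-9 was OSMR, a receptor for oncostatin M, which rose by 0.74 (limma adjusted p = 0.0214), from 9.39, 10.96 and 11.004 to 16.9, 19.3 and 18.1 FPKM. That call was lost with no filter (0.0595) and without nc replicate 3 (0.128), shSYK replicate 1 (0.111), 2 (0.144) or 3 (0.124).

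ELF3, an epithelial factor that acts with NF-kB, fell in EBC-1 by 1.22 (limma adjusted p = 0.000182) and in HCC827 by 1.16 (adjusted p = 0.000347). In EBC-1 the interleukin gene IL1B fell by 1.33 (adjusted p = 0.000102) and CEBPB, a C/EBP factor, by 1.03 (adjusted p = 0.000413). The largest rises of this role there were IL6 by 0.64 (limma adjusted p = 0.00105) and TNFAIP3 by 0.60 (limma adjusted p = 0.00281). In HCC827, ZC3H12A, whose RNase product trims inflammatory transcripts, fell by 2.07 (adjusted p = 0.000500) and CEBPD by 1.13 (adjusted p = 0.00310). Of 31 genes of this role tested in EBC-1, 12 rose and 6 fell, beside 23.1% and 21.6% of all genes. Of 31 tested in HCC827, 7 rose and 14 fell, beside 17.2% and 20.7% of all genes.

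The genes whose pattern was most like that of a member were found over the 18 libraries, after centring log2(FPKM + 1) within each cell line, among 11798 protein-coding genes. These correlations are a description, since all genes share the same libraries and the contrast that chose the 10. The highest Pearson r was 0.980 for S100A9 with DEFB4B, 0.974 for S100A9 with SAA1, and 0.981 for S100P with PIGR, the transporter of mucosal antibodies. PI3 was most like EGR1, an immediate early factor, at 0.978. SAA2 was most like TCN1, a secreted vitamin B12 binder, at 0.975, and SLPI most like HGD, an enzyme gene of tyrosine breakdown, at 0.971. LCN2 was most like CORO2A at 0.970, S100A7 most like S100A9 at 0.968, DEFB4A most like DEFB4B at 0.969, and S100A8 most like the serpin gene SERPINB4 at 0.949. Within the 10 genes the lowest r was 0.450, between S100A8 and LCN2, the genes on the farthest sides of the EBC-1 comparison.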

How the data were processed

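The FPKM values were deposited by the authors, 1 table per cell line, with a gene length column and 1 column per library. Per the study's methods, RNA came from TRIzol, an Illumina HiSeq instrument read it, and reads were mapped to hg38. CASAVA and HISAT2 appear in the submitters' processing notes, which also list other builds. The counter and the annotation are not given in the sources used here. FPKM times gene length gave whole reads for 100% of values within 0.05 of a whole number, and supplied reads, depth and floors (3 reads), which cover counting error only. Replicate libraries differed beyond counting error (chi-square per degree of freedom 2.11 to 38.7, the highest between PC-9 nc replicates 1 and 2). Each line was fitted with limma 3.58.1 in R 4.3.3 on log2(FPKM + 1), so folds on that scale understate changes of low genes, with empirical Bayes moderation and a variance trend. Genes with a mean of at least 1 FPKM over 6 libraries were tested, two-sided, with Benjamini-Hochberg adjustment over all genes tested and a threshold of 0.05. An exact permutation test of 3 against 3 libraries cannot go below 0.1 and was not used. The fit was tested on simulated data.

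The members, lists and naming rule were chosen with earlier results of these data known. All 10 members and SYK are named, with up to 3 pathway genes per role and line, past the threshold, without overlap, by largest change. Genes named outside the rule (NFKBIZ in EBC-1 and HCC827, IL6 and TNFAIP3 in EBC-1, FPR2, CCR6, CTSG, ELANE, AGER, DEFB103B and single marker genes) were picked after their values were seen. The 3 most alike genes were found per member, of which the first, and a few others, are named. The alternatives changed the pseudocount (0.1), the filter (none, or a mean of 5), the scaling (equal sum as TPM, quantile normalization, length trend removed), the model (without the variance trend, with all 18 libraries at once, with a replicate block, or limma-voom on recovered reads), and left out each library. Sequences and motif shares are from RefSeq (GRCh38.p14), shared words from GENCODE v44. Python 3.11.15 with pandas 2.3.3 and matplotlib 3.10.9 did the rest.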

Additional observations from a re-analysis of the deposited data

Results flagged for a closer look

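Listed here are genes whose shSYK libraries all lay above nc in 1 cell line and all below nc in another. The share of all genes with such opposite sides was not counted, so the list is no support for a result about these genes. The differences between lines, in log2(FPKM + 1) of the shSYK minus nc difference, were not tested. Between EBC-1 and HCC827 the gap was 6.20 for S100A9, 5.34 for DEFB4A, 4.87 for S100A7, 4.70 for S100A8, 3.56 for PI3, 3.06 for SAA2 and 2.85 for SAA1, which is the pattern the genes were chosen by. Between EBC-1 and PC-9 it was 3.29 for S100A8, 1.83 for S100A9 and 0.92 for SAA1. SLPI differed by -0.32 between EBC-1 and PC-9, where the EBC-1 direction depends on scaling, and by 2.11 between PC-9 and HCC827. All these gaps use EBC-1 or HCC827 values, the lines that led to the choice of genes. In PC-9, the differences of S100A9, SAA1 and SLPI did not pass (limma adjusted p = 0.201, 0.272 and 0.418).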

How the results depend on the processing

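Of 757 values of single genes under the alternatives, 710 kept their direction and side of the threshold or moved by less than the spread between libraries, 18 lost and 13 gained a call, 14 moved further, and 2 reversed. The reversals were of SLPI in EBC-1, to 0.042 after rescaling to an equal sum and 0.037 after quantile normalization. The PC-9 counts were the least stable. Against 253 genes called in PC-9, there were 47 with no filter, 491 after rescaling to an equal sum, 505 after quantile normalization, 1513 in a fit of all 18 libraries, 418 with limma-voom, and 7 (without shSYK replicate 1) to 621 (without nc replicate 1) with a library left out, where each of the 6 libraries moved the count by over 1.5 times. Pathway genes called in PC-9, 2 in the reported fit, were 0 with no filter (18 at an unadjusted p under 0.05), 1 with a filter at 5, 8 after rescaling, 7 after quantile normalization, 10 in the fit of all 18 libraries, 4 with limma-voom, and 0 to 7 with a library left out. Members called in PC-9, 1 in the reported fit, were 0 with no filter (3 at an unadjusted p under 0.05), 2 with a filter at 5, 4 after rescaling, 4 after quantile normalization, 2 without the length trend, 2 without a variance trend, 2 with limma-voom, and 0 to 3 with a library left out. The count of 0 came without nc replicate 3 or any 1 shSYK replicate, each with 2 at an unadjusted p under 0.05, and the 3 came without nc replicate 1. The cause was not tested. In EBC-1, 3579 genes were called with a filter at 5, where fewer genes were tested, against 5562. Pathway genes there were 17 to 31 with a library left out. Rescaling to an equal sum moved the EBC-1 split from 2876 higher and 2686 lower to 4019 and 1901, and the HCC827 split from 2066 and 2488 to 2482 and 1905. SYK in PC-9 had -1.33 without shSYK replicate 1, and -1.35 to -1.18 over all libraries left out.

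Replicate numbers are shared between nc and shSYK, but the labels do not say that they pair libraries. Deviations of same-numbered libraries had a correlation of -0.22 to 0.33, in 0 lines over 0.1 for every pair, and 5 of 18 libraries were closest to their own number. With the number as a replicate block, 172 genes, 1 pathway gene and 0 members (3 at an unadjusted p under 0.05) were called in PC-9. Low reads limit S100A7 and S100A8 in HCC827, where the difference in log2 moved from -3.68 to -6.90 and from -2.20 to -4.54 with a pseudocount of 0.1.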
